A study of Mus musculus with 43 samples.

Results

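Gpr50, Tph2, Myh15, Vsig8, Lipn, Fat3 and Prss46 are 7 of the 56748 genes in the count file from RNA sequencing of mouse epididymal white adipose tissue, the fat pad attached to the epididymis. They were chosen by name, as genes with few or no reads on a standard diet and more on a high-fat diet, so their levels in those diet groups chose them and are given here as a description with no test. The 43 libraries, all from male mice, fall into 5 groups. The standard diet group, SD, had 10% fat, 20% protein and 70% carbohydrate and has 7 libraries, and the high-fat diet group, HFD, had 60% fat, 20% protein and 20% carbohydrate and has 10. The other groups had the 60% fat diet with Ramulus Mori (Sangzhi) alkaloids, SZ-A, an extract of mulberry twig, at 200 mg/kg/day in 9 libraries, at 400 in 8 and at 600 in 9. The labels call the libraries replicate biosamples and name no animals, strain or age, so a p-value here measures spread among the libraries, which may be technical. Since the rule used only SD and HFD, tests on the 7 genes were run among the 26 SZ-A libraries, which it did not use.

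Each of the 7 genes is known from a tissue other than fat. Gpr50 encodes an orphan G-protein-coupled receptor related to the melatonin receptors and known from the hypothalamus and pituitary. Tph2 encodes the neuronal form of tryptophan hydroxylase, the first enzyme of serotonin synthesis, while Tph1 encodes the form of gut and other peripheral tissue. Myh15 encodes a myosin heavy chain of the sarcomeric kind, and Fat3 a giant atypical cadherin of neurons and retina. Vsig8 encodes a membrane protein with immunoglobulin domains that is known from skin and hair and, in humans, has been described as a ligand of VISTA (gene Vsir). Lipn belongs to the acid lipase family and is known from the upper epidermis, and Prss46 encodes a trypsin-like serine protease in a cluster with testis-expressed relatives. In obesity, macrophages gather around dying adipocytes in this fat pad. Those that take up lipid carry Trem2, Gpnmb and Itgax, and those resident in lean fat carry Lyve1 and Timd4.

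The promoter windows of Vsig8, Lipn and Tph2 are shown because they hold the searched motifs that bear on the comparison with macrophage genes (PU.1 and AP-1) or a TATA box close to the start. RefSeq's GRCm38.p6 annotation gave a window of 300 bases, from 250 before the start site to 50 after it, for all 7 genes, and 8 windows in all because Vsig8 has a pair of start sites. Each is written 5′ to 3′ on the gene's strand, in lower case with the motif in capitals. The Vsig8 windows are chr1:172559656-172559955 and, for the other start site, chr1:172555688-172555987, both on the plus strand. The Lipn window is chr19:34067108-34067407 on the plus strand and the Tph2 window is chr10:115184973-115185272 on the minus strand.
Vsig8, start site 1: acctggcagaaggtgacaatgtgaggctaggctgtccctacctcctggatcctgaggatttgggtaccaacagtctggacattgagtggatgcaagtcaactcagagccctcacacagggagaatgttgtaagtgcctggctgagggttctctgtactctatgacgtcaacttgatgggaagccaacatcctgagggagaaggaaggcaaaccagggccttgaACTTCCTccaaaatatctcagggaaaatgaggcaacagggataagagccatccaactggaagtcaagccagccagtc
Vsig8, start site 2: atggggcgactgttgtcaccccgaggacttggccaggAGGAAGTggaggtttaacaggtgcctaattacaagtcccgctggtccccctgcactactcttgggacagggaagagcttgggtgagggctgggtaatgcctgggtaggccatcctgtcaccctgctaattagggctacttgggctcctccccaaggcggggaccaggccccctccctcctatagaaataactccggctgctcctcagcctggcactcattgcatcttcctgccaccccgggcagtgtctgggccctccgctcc
Lipn: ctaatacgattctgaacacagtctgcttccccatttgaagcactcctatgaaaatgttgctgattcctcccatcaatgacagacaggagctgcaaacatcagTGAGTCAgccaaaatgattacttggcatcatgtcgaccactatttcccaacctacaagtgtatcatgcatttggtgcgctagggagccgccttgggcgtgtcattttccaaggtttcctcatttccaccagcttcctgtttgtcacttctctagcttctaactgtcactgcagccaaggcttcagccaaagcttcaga
Tph2: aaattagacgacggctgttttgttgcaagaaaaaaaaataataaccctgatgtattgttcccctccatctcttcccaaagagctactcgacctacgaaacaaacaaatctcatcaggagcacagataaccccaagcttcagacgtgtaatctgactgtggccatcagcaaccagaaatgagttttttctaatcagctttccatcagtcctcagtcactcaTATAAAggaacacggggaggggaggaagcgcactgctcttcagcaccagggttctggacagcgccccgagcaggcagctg

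Both strands were searched for 4 motifs that do not overlap each other in these windows. The letters AGGAAGT, the core bound by the macrophage factor PU.1, stand in both Vsig8 windows, 27 bases before site 1 on the other strand (capitals ACTTCCT) and 213 bases before site 2, and in 9.35% of all 32851 promoter windows. TGANTCA, the AP-1 element, stands 148 bases before the Lipn start and in 7.81% of windows. TATAAA stands 30 bases before the Tph2 start, on the other strand in the Myh15 window at -237, and in 13.6% of windows. The E-box TCACGTG of the MITF and TFE factors, held by 3.77% of windows, was in none of the 8. The windows of Gpr50, Fat3 and Prss46 held none of these letters. A match is a description of the sequence and says nothing about binding.

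Library totals ran from 32.7e6 to 44.3e6 counts with a median of 37.6e6. They fall into 2 sets by the share of counts in small non-coding RNAs, 22 libraries at 0.00319% to 0.00642% (set 1) and 21 at 0.00992% to 0.0228% (set 2), and the sets follow the library numbers, with numbers 1 to 5 of each high-fat group in set 1. SD has 2 libraries in set 1 and 5 in set 2. In 4 libraries, SD library 4, SZ-A 400 libraries 3 and 6 and SZ-A 600 library 6, between 185 and 752 genes stood far above the other libraries, against at most 58 elsewhere. Their summed epithelial markers did too. Ciliated cell genes reached 798 CPM, or counts scaled to the size of the library, in SD library 4 and 1439 in SZ-A 600 library 6, against at most 43.8 in the other 39 libraries. Squamous genes reached 10801 CPM in SZ-A 400 library 3 against at most 16.2, and duct genes 23411 CPM in SZ-A 400 library 6 against at most 102. Results on the 7 genes are therefore given with all libraries and without these 4, and "without other tissue RNA" below means without these 4. SD library 1 was kept and gave the highest values of the other 39, 43.8, 16.2 and 102 CPM. The medians of the 39 were 4.48 for ciliated, 3.42 for squamous and 1.05 CPM for duct genes. Its duct genes exceeded those of SZ-A 400 library 3, at 72.6 CPM, so the 39 are not free of epithelial RNA. The 12 adipocyte markers summed to at least 14163 CPM in each SD library and 14235 in each HFD library, so the labelled tissue was present.

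Per kilobase of gene, Vsig8 was the most abundant of the 7 in HFD, at a mean of 47 FPKM, which scales fragments to gene length and library size. Tph2 followed at 16.8 FPKM and Gpr50 at 11.3. Myh15 had 3.06 FPKM, Prss46 2.25, Fat3 0.884 and Lipn 0.745. From here on, levels are CPM within a gene, and a difference between groups is a log2 ratio from edgeR with its standard error (SE).

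The receptor gene Gpr50 (chrX:70707273-70712863 in the deposited coordinates) ranged from 0 to 0.943 CPM in SD with a median of 0.0542. In HFD it ranged from 1.21 to 76.5 CPM with a median of 32.8. All 10 HFD libraries lay above the highest SD library, and HFD was higher by a log2 ratio of 7.55 (SE 1.11). Over all 20218 genes tested, 31.7% were called between HFD and SD in either direction, and nothing is read from the 7 genes' counts against that share because the contrast chose them. The serotonin-synthesis gene Tph2 (chr10:114914546-115020927) ranged from 0 to 0.694 CPM in SD (median 0.349) and from 1.18 to 102 CPM in HFD (median 52.1). Here too the 10 HFD libraries all lay above SD, with a log2 ratio of 6.95 (SE 1.38). These 2 genes had no overlap between the diets, although each spanned more than a factor of 10 within HFD. The diets chose the genes, and the share of all genes without overlap was not counted, so the lack of overlap is only a description.

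The myosin gene Myh15 (chr16:48877849-49019467) stayed between 0 and 0.22 CPM in SD, with a median of 0.0582. In HFD its levels ran from 0.0909 to 42.2 CPM with a median of 19.5. The HFD library with the lowest value overlapped SD and the other 9 lay above it, and the log2 ratio was 7.52 (SE 1.12). The cadherin gene Fat3 (chr9:15821485-16412581) ranged from 0.0534 to 5.13 CPM in SD (median 0.163) and from 0.363 to 37.3 CPM in HFD (median 20.9). The SD value of 5.13 CPM, or 234 reads, came from SD library 4, and 7 of 10 HFD libraries lay above it. Without that library all 10 HFD libraries lay above SD. The log2 ratio was 4.49 (SE 1.09) with all libraries and 7.21 without the 4 that held other tissue RNA.

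The skin and hair gene Vsig8 (chr1:172383505-172391284) ranged from 0.107 to 4.1 CPM in SD with a median of 0.877. In HFD it ranged from 0.454 to 196 CPM with a median of 90.1, with 9 of 10 libraries above SD and a log2 ratio of 5.80 (SE 1.09). A long non-coding RNA on the opposite strand, 4933439K11Rik, overlaps Vsig8 and had at most 3.61 CPM in HFD. The library protocol is strand-specific, and the sources used here do not say how strand was treated in counting, so reads of this pair may not be told apart.

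The lipase gene Lipn (chr19:34044758-34062318) had no read in 6 of 7 SD libraries and 0.0877 CPM in SD library 4. In HFD it ranged from 0 to 2.79 CPM with a median of 1.31, with 9 of 10 libraries above SD. The fitted log2 ratio was 6.36 (SE 1.21). Against a floor of 3 counts per library, at most 0.0872 CPM in the 6 libraries without a read, the HFD mean of 1.43 CPM was 16.4-fold higher. Of all counts from 1 to 20 in the deposited counts, 65.8% were even. Counts may thus not be independent fragments, so a floor of 3 may be too low and the fold is not a firm lower limit. The protease gene Prss46 (chr9:110673574-110685590) ranged from 0 to 1.93 CPM in SD (median 0) and from 0 to 6.64 CPM in HFD (median 3.37). SD library 4 supplied the 1.93 CPM, or 88 reads, with 7 of 10 HFD libraries above it and 9 above the other SD libraries. The log2 ratio was 3.36 (SE 1.24) with all libraries and 7.15 without the 4.

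All 7 genes passed the filter on low counts, which a gene that is high in HFD passes through that group. The name given to these genes, ectopic and switched on by the diet, holds in part. The SD libraries were not all near 0, with up to 4.1 CPM for Vsig8, and 1 to 3 HFD libraries remained within the SD range for each gene other than Gpr50 and Tph2.

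**Figure D1:**
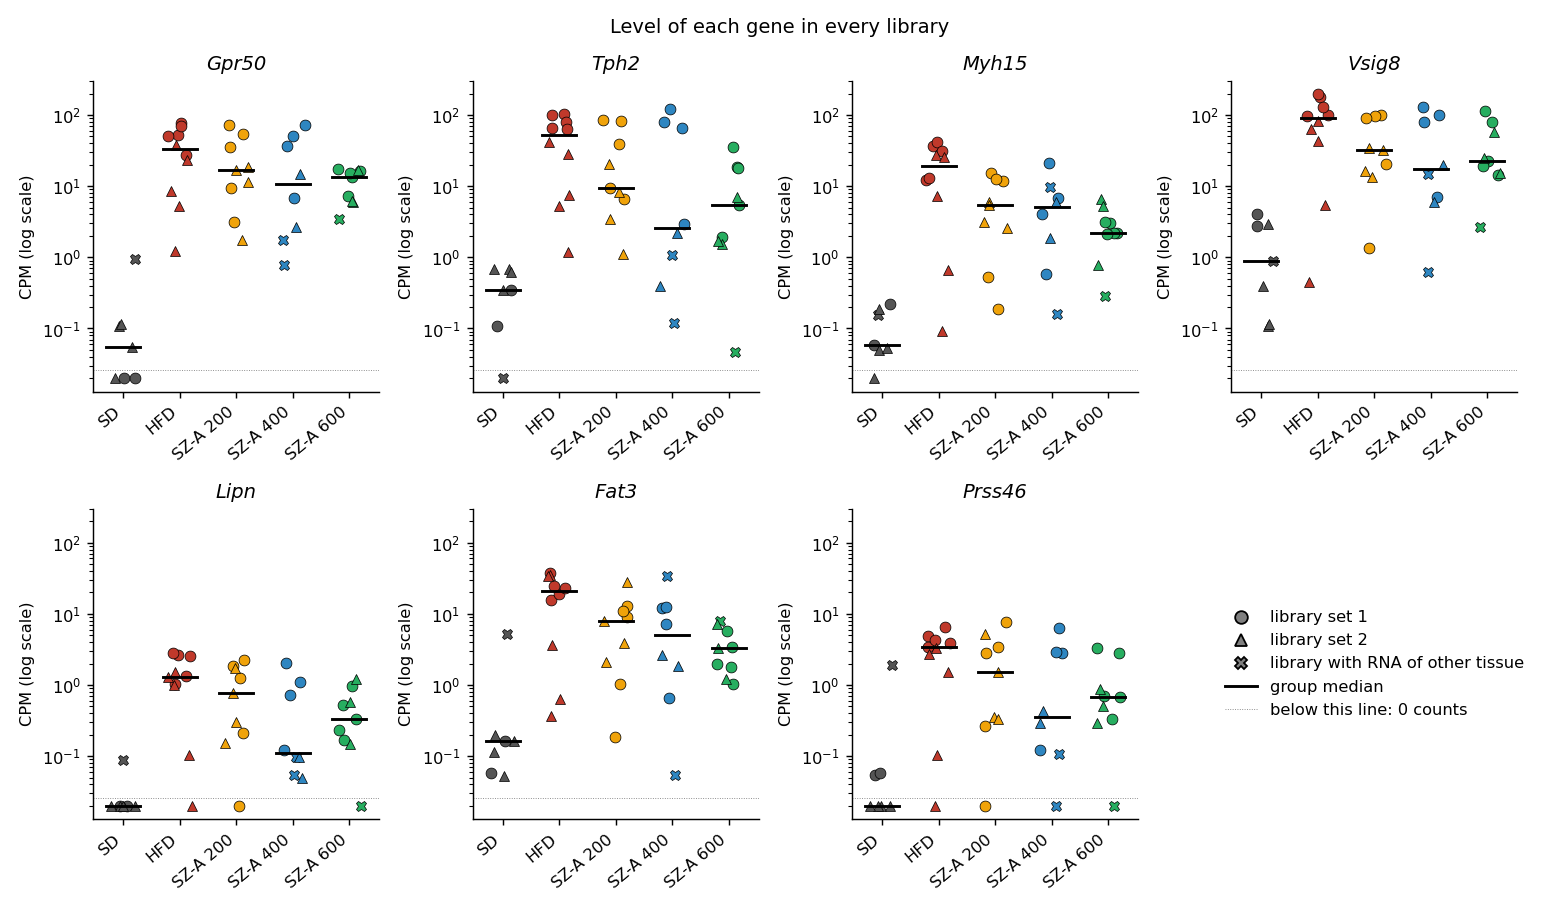
Level of each of the 7 genes in every library, in CPM on a log axis, by group (SD, HFD and SZ-A at 200, 400 and 600 mg/kg/day), with a bar at the group median. Circles are library set 1, triangles set 2 and crosses libraries with other tissue RNA, and points under the dotted line had 0 counts. The SD points sit low in every panel, with the cross of SD library 4 above the rest for Gpr50, Lipn, Fat3 and Prss46, and the HFD points spread from that level up to 196 CPM for Vsig8.

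Levels within HFD went together by library. HFD library 8 was the lowest of the 10 for all 7 genes, and it also had the lowest macrophage score, 5.22, where the score is the mean log2 CPM of 20 macrophage genes. HFD libraries 9 and 10 had scores of 6.73 and 5.56 and were among the highest 3 HFD libraries for none of the 7 genes. HFD libraries 1 to 7 had scores from 7.77 to 8.75. In the 7 SD libraries the score ran from 4.29 to 5.89, so HFD libraries 8 and 10 lay within the SD range.

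The library sets moved with the HFD levels as well. The median Gpr50 level was 52.6 CPM in the 5 HFD libraries of set 1 and 8.57 in the 5 of set 2. For Tph2 it was 80.5 against 7.48 CPM, and for Vsig8 129.9 against 43.7 CPM. For Myh15 it was 31.1 against 7.3 CPM and for Fat3 22.8 against 3.66 CPM. Lipn had 2.57 against 1 CPM and Prss46 4.3 against 1.53 CPM. All 7 genes thus had the higher HFD median in set 1, and the share of all genes that did so was not counted. The macrophage score split the same way, from 8.28 to 8.75 in HFD set 1 and from 5.22 to 7.84 in HFD set 2. Whether the HFD levels go with the set or with the score was not tested. What the sets are is not given in the labels.

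The macrophage genes themselves were higher in HFD. Of the 20 genes of the macrophage list, 19 rose and none fell, where 18.4% of all genes tested rose and 13.3% fell, with a median log2 ratio of 2.91 against -0.05 over all genes tested, and their summed level ran from 695 to 1999.6 CPM in SD and from 1304 to 16158 CPM in HFD. Adgre1, which encodes the macrophage surface protein F4/80, rose by 4.07 (SE 0.78, edgeR adjusted p = 0.000334) and the lysosomal Cd68 by 3.94 (adjusted p = 0.000355). Of 20 lipid-associated macrophage genes 15 rose, among them Itgax by 5.36 (adjusted p = 0.000103), Trem2 by 5.00 (adjusted p = 0.00047) and Gpnmb by 4.90 (adjusted p = 0.00094). Of 15 resident macrophage genes 7 rose, against the 18.4% of all genes. The mannose receptor gene Mrc1 rose by 2.03 (adjusted p = 0.00138), while Lyve1 at 0.28 (adjusted p = 0.661) and Timd4 at -0.23 (adjusted p = 0.734) did not pass the test. In bulk tissue, fewer cells of a type and less RNA per cell cannot be told apart.

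Among the 26 SZ-A libraries, which did not choose the genes, 6 of the 7 rose with the macrophage score in edgeR's quasi-likelihood test across 18636 genes, of which 17.9% rose. The slope is the change in log2 level per unit of the score. It was largest for Tph2, at 1.80 (SE 0.23, adjusted p = 1.04e-06), and for Prss46, at 1.74 (SE 0.16, adjusted p = 1.78e-09). Lipn had a slope of 1.26 (SE 0.16, adjusted p = 1.19e-06), Vsig8 1.18 (SE 0.15, adjusted p = 7.89e-07) and Gpr50 1.08 (SE 0.15, adjusted p = 3.15e-06). Myh15 had a shallower slope of 0.59 (SE 0.21, adjusted p = 0.0294). Fat3, at 0.12 (SE 0.23, adjusted p = 0.702), did not pass.

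The Fat3 and Myh15 slopes depended on the libraries that held other tissue RNA. SZ-A 400 library 6 had the highest Fat3 level of its group, 34.3 CPM (1424 reads), and the second highest Myh15 level, 9.71 CPM (403 reads), at the lowest macrophage score of all, 3.88. That library also had 10245 CPM of the smooth muscle gene Myh11, against at most 322 in the 39 libraries without other tissue RNA. In SZ-A 600 library 6, Fat3 was likewise the highest of its group, at 7.85 CPM, at a score of 4.35. Without SZ-A 400 library 6 the Fat3 slope was 0.79 (edgeR adjusted p = 0.0085) and the Myh15 slope 1.17 (SE 0.21, adjusted p = 0.000104). The Myh15 slope failed the threshold without SZ-A 400 library 5 (0.50, adjusted p = 0.107) or without SZ-A 600 library 6 (0.53, adjusted p = 0.0527).

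In the 23 SZ-A libraries without other tissue RNA, all 7 genes rose with the macrophage score, against 21.4% of the 18900 genes tested. The slopes were 1.71 for Tph2 (SE 0.28, edgeR adjusted p = 3.12e-05), 1.71 for Prss46 (SE 0.15, adjusted p = 3.49e-09) and 1.40 for Lipn (SE 0.18, adjusted p = 1.28e-06). They were 1.28 for Vsig8 (SE 0.15, adjusted p = 4.25e-07), 1.20 for Fat3 (SE 0.18, adjusted p = 8.29e-06), 1.01 for Gpr50 (SE 0.18, adjusted p = 7.87e-05) and 0.99 for Myh15 (SE 0.23, adjusted p = 0.00115). The 20 macrophage genes had a median slope of 1.04 in the same libraries, but each of them is part of the score. The slopes of Gpr50 and Myh15 lay closest to that value, and those of Tph2 and Prss46 were the steepest of the 7.

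**Figure D2:**
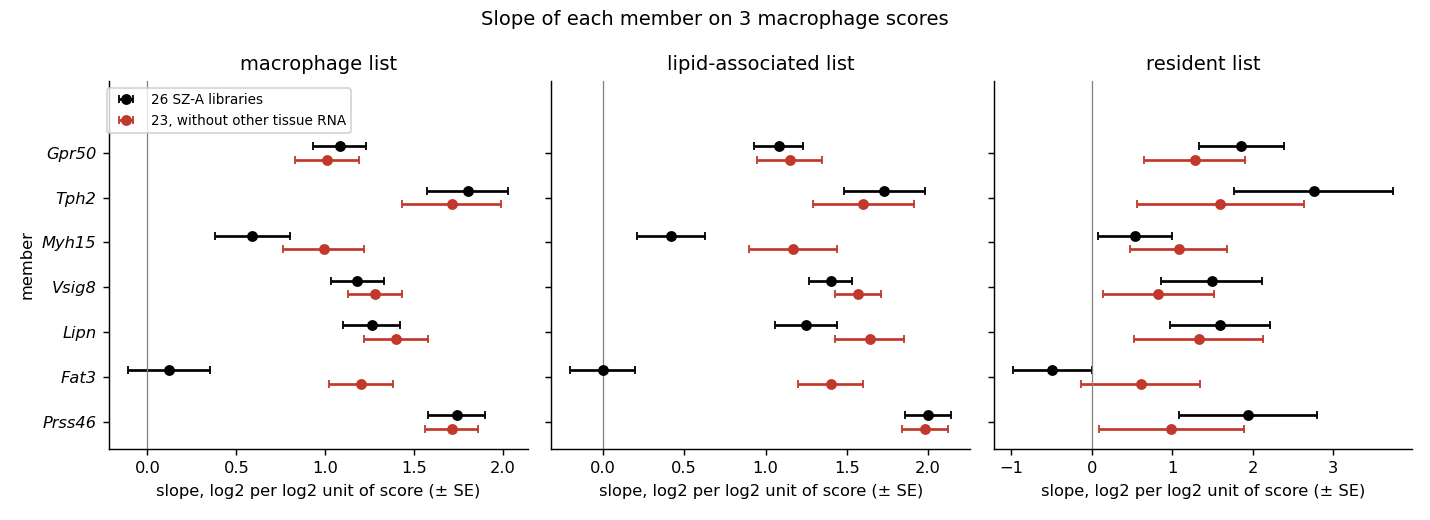
Change in log2 level per unit of each of 3 macrophage scores, 1 panel per score, for each of the 7 genes (rows, named members), with the standard error, in all 26 SZ-A libraries and in the 23 without other tissue RNA. On the score of the macrophage list, Fat3 moves from 0.12 to 1.20 and Myh15 from 0.59 to 0.99 between the library choices, and the error bars on the resident score are the widest.

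Each gene was also correlated with the score across libraries. Over the 26 SZ-A libraries, Prss46 had a Pearson r of 0.95 and a Spearman rho of 0.95 with the macrophage score, Lipn 0.89 and 0.90, Tph2 0.88 and 0.87, Vsig8 0.87 and 0.89 and Gpr50 0.85 and 0.85. For these 5 genes the permutation p was 1e-05 for r and for rho, the smallest that 100000 permutations can give. Myh15 had r = 0.66 (permutation p = 0.00029) and rho = 0.68 (permutation p = 0.00017), and Fat3 r = 0.50 (permutation p = 0.00936) and rho = 0.56 (permutation p = 0.00389). These are 7 relations in 1 family. Without the 2 libraries farthest from the median score, SZ-A 400 library 6 and SZ-A 200 library 2, r was 0.93 for Prss46, 0.90 for Lipn, 0.84 for Tph2, 0.83 for Vsig8 and 0.82 for Gpr50, and it rose to 0.82 for Myh15 and 0.74 for Fat3. Within the 15 libraries of set 1, r ran from 0.82 for Vsig8 to 0.96 for Fat3. Within the 11 of set 2 it was 0.98 for Prss46, 0.91 for Tph2, 0.88 for Vsig8, 0.85 for Lipn and 0.68 for Gpr50, but 0.42 for Myh15 (permutation p = 0.197) and 0.11 for Fat3 (permutation p = 0.76). The r of Myh15 and Fat3 with the macrophage score thus did not pass within set 2. That set contains the libraries numbered 6 of SZ-A 400 and SZ-A 600, which held other tissue RNA. No r within set 2 was computed without them, so these values do not show whether the relation fails in its other libraries.

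**Figure D3:**
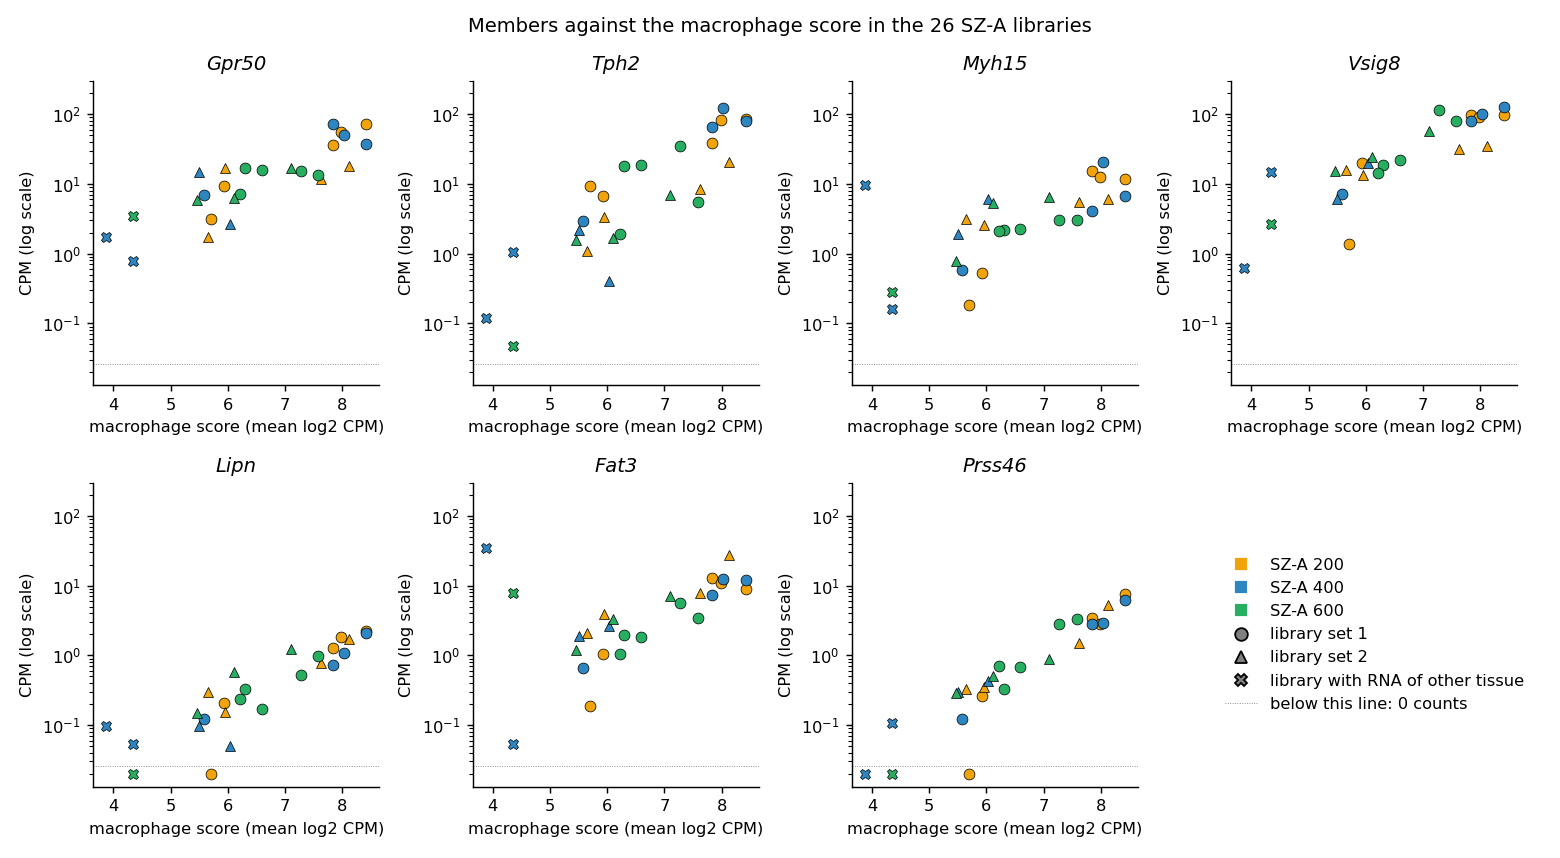
CPM of each of the 7 genes, on a log axis, against the macrophage score (mean log2 CPM of 20 macrophage genes) in the 26 SZ-A libraries, coloured by dose, with circles for library set 1, triangles for set 2 and crosses for libraries with other tissue RNA. The points rise from left to right, least clearly for Fat3 at a Pearson r of 0.50. The cross of SZ-A 400 library 6, at a score of 3.88, stands high for Fat3 at 34.3 CPM and for Myh15 at 9.71 CPM.

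The difference in slope between the sets was tested directly. With all 26 libraries, the slope in set 2 minus that in set 1 was -1.46 for Myh15 (SE 0.38, edgeR adjusted p = 0.038) and -1.71 for Fat3 (SE 0.40, adjusted p = 0.0271). These were the 2 of the 7 genes that were called, against 4.00% of 18636 genes. Without the libraries with other tissue RNA, none of the 7 was called, as was 0% of 18900 genes in edgeR, where 1781 had an unadjusted p under 0.05 and no other tool was run. The difference was then -1.09 for Myh15 (adjusted p = 0.442) and -0.30 for Fat3 (adjusted p = 0.744).

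Levels also differed between the sets among SZ-A libraries. The log2 difference, set 2 minus set 1, was -3.23 for Tph2 (SE 0.85, edgeR adjusted p = 0.00278), -1.59 for Vsig8 (SE 0.64, adjusted p = 0.0403) and -1.45 for Gpr50 (SE 0.57, adjusted p = 0.0361), or 3 of 7 genes where 50.5% of all genes differed. With the macrophage score as a term, 1 of the 7 still differed, Tph2 at -1.95 (adjusted p = 0.0004), where 48.5% of all genes did. With the score as a term and without other tissue RNA, 2 of the 7 differed against 56.7% of all genes, Tph2 lower in set 2 at -1.94 (adjusted p = 0.00119) and Fat3 higher at 1.33 (adjusted p = 8.01e-05). The 7 genes thus differed between the sets no more often than genes in general, and Tph2 was lower in set 2 in each of the 3 fits.

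The count of genes differed with the macrophage list behind the score. With the score of the 20 lipid-associated genes, 5 of the 7 rose among the 26 libraries, where 16.8% of genes did, with the steepest slopes for Prss46 at 2.00 (SE 0.14, edgeR adjusted p = 1.86e-11) and Tph2 at 1.73 (SE 0.25, adjusted p = 7.22e-06). Myh15 at 0.42 (adjusted p = 0.109) and Fat3 at 0.00 (adjusted p = 0.995) did not pass. With the resident score 3 of 7 rose, Gpr50 at 1.86 (adjusted p = 0.0116), Tph2 at 2.76 (adjusted p = 0.0342) and Lipn at 1.59 (adjusted p = 0.0487), where 12.7% of genes rose. Without other tissue RNA, 7 of the 7 rose with the lipid-associated score, where 19.8% of genes did, and none with the resident score, where 6.88% did. The slopes on different scores were not tested against each other.

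Other cell types were described by correlation over the 23 libraries, in which all points share their depth and library with the score and no test is given. For Gpr50, Tph2, Myh15, Vsig8, Lipn, Fat3 and Prss46 in turn, r with the lipid-associated score was 0.79, 0.78, 0.76, 0.93, 0.91, 0.87 and 0.98, and r with the resident score was 0.48, 0.55, 0.23, 0.13, 0.27, 0.20 and 0.24. Every one of the 7 genes was thus nearer to the lipid-associated score than to the resident one. The resident list was mixed, as 8 of its 15 genes rose with the macrophage score in these libraries and 1 fell. Of the 20 lipid-associated genes, 16 rose and 0 fell. A low r with the resident score thus need not hold for each gene of that list. The neutrophil score, from the 6 of 10 listed genes that passed the filter, had its highest r with Tph2, at 0.83, just above that of the macrophage score with Tph2, at 0.82. For the dendritic cell score r was at most 0.64, for the mast cell score at most 0.63 and for the B cell and T cell scores at most 0.42. The score of the neuronal list had r from 0.42 for Myh15 to 0.67 for Tph2. The adipocyte score ran the other way, with r from -0.42 for Tph2 to -0.87 for Fat3, but over all 26 libraries r was 0.18 for Tph2, 0.19 for Vsig8, -0.01 for Gpr50 and -0.04 for Prss46. Whether cells other than macrophages carried part of these transcripts was not tested.

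**Figure D4:**
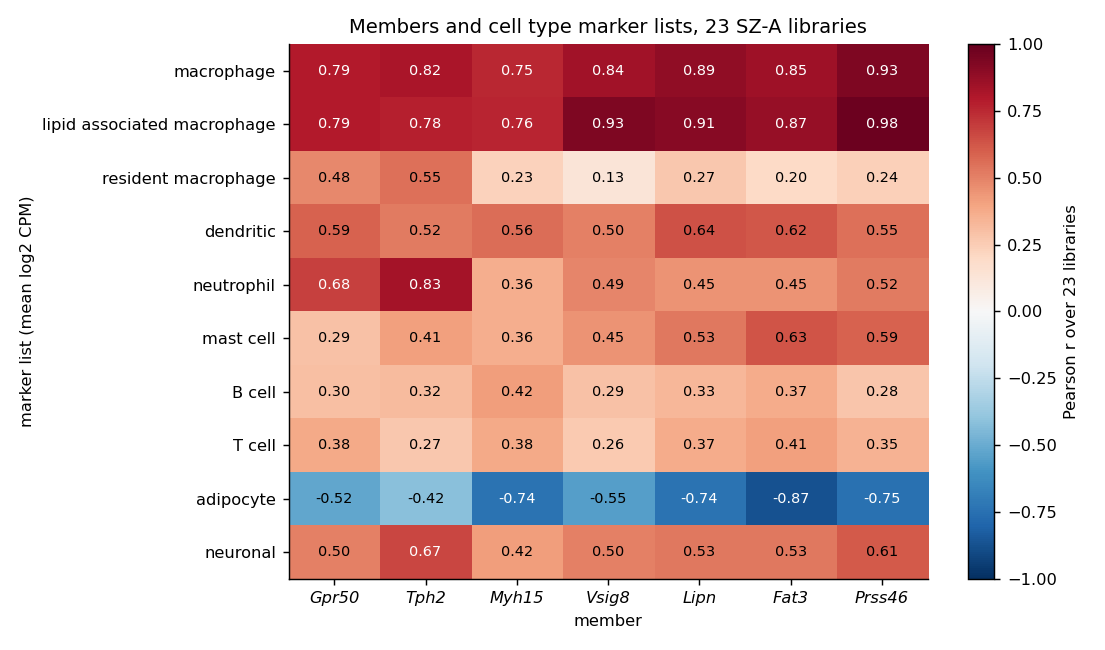
Pearson r between the log2 CPM of each of the 7 genes and the mean log2 CPM of each cell type list over the 23 SZ-A libraries without other tissue RNA. The lipid-associated macrophage list gives values from 0.76 to 0.98, the resident macrophage list from 0.13 to 0.55, and the adipocyte list gives negative values throughout.

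The 7 genes also went with each other to different degrees over the same 23 libraries. The closest pairs were Vsig8 with Prss46 at r = 0.92 and Lipn with Prss46 at r = 0.90. Myh15 with Fat3 and Fat3 with Prss46 were at 0.89. Gpr50 was closest to Tph2, at 0.86. Tph2 with Myh15, at 0.47, was the lowest of the 21 pairs.

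The genes most like each of the 7 were sought by Pearson r among about 13577 genes with a mean of at least 1 CPM over the 26 SZ-A libraries. For Prss46 they were Adssl1, Rab7b, Mfsd12, Ctsk (cathepsin K) and Gpnmb, all at r = 0.97. For Vsig8 they were Adssl1, Dcstamp, which encodes a fusion protein of osteoclasts and macrophage giant cells, F10, Arhgap25 and Lgals3 (galectin-3), at 0.94 to 0.95. For Lipn they were Cd44, Mfsd12, Cnr2, Pi4k2a and Lair1, at 0.93 to 0.94. Adssl1 and Mfsd12 each stood in the list of 2 of the 7 genes. Gpr50 was most like Ccr2, the receptor that brings monocytes into tissue, with Ptpro, H2-DMb1, Serpinb6b and Slamf9, at 0.90 to 0.91. For Tph2 the 5 genes were Rtn4, Mfsd1, Pea15a, Cdc42 and Ostm1, at 0.95 to 0.96. Myh15 was most like Neurl3, Fblim1, Ptpn22, Car9 and Arhgap6, at 0.87 to 0.89, and Fat3 most like Slc38a1, Bend4, Trerf1, Myof and Traf5, at 0.93 to 0.96. These lists depend on the libraries. Over the 23 libraries without other tissue RNA, 2 of the 5 genes were shared for Vsig8 (Arhgap25 and F10), 1 for Tph2 (Rtn4), 1 for Fat3 (Myof) and 0 for Gpr50, Myh15, Lipn and Prss46. In those libraries the closest gene was Trem2 for Prss46 (r = 0.98), F7 for Vsig8 (0.98), Adcy7 for Fat3 (0.98), Tmem38b for Tph2 (0.95), Il7r for Lipn (0.94), Armc2 for Myh15 (0.93) and Cdca7l for Gpr50 (0.91).

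The other genes of serotonin synthesis and handling moved in both directions. Of 14 tested, 2 rose in HFD and 5 fell, where 18.4% and 13.3% of all genes did, with a median log2 ratio of 0.29 against -0.05 over all genes. The vesicular monoamine transporter gene Slc18a1 rose by 2.45 (SE 0.53, edgeR adjusted p = 0.000797), from a mean of 0.699 to 3.84 CPM, and Maoa, which breaks serotonin down, rose by 0.99 (adjusted p = 0.00465). Among the 5 that fell was Pts, an enzyme of the cofactor tetrahydrobiopterin, at -0.60 (adjusted p = 0.0176). Ddc, which makes serotonin from the product of tryptophan hydroxylase, averaged 0.224 CPM in HFD and did not exceed 0.357 CPM in the 23 SZ-A libraries. It fell in HFD with all libraries (-3.58, adjusted p = 0.0215). When the 4 libraries with other tissue RNA were left out, its ratio was 0.01 (adjusted p = 0.99) and 3 genes of the pathway fell. Tph1 averaged 0.152 CPM in SD and 1.02 CPM in HFD, a log2 ratio of 2.71 that did not pass (adjusted p = 0.111). In the 23 SZ-A libraries, where it reached 24.2 CPM, Tph1 rose with the macrophage score at a slope of 2.14 (SE 0.46, adjusted p = 0.000639), and Slc18a1 at 0.81 (SE 0.11, adjusted p = 1.55e-06). Of 13 genes of the pathway tested there, 5 rose with the score and 2 fell. Ddc and Tph1 are named because they act beside Tph2, and were chosen after their values were seen.

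Relatives of the other genes were mostly near 0 or did not pass the test. Of 6 genes of the melatonin system, 5 stayed under 1 CPM in all libraries, with the melatonin receptor genes Mtnr1a and Mtnr1b at HFD means of 0 and 0.0028 CPM, and the 1 tested, Gpr62, did not pass. Among 8 tested myosin heavy chain genes none rose, where 18.4% of all genes did. Myh10, a non-muscle myosin, fell by 0.66 on the log2 scale (edgeR adjusted p = 0.02), where 13.3% of all genes fell. None of 5 tested genes of the Fat and Dachsous family was called with all libraries, and Fat4 fell by 0.71 on the log2 scale without those holding other tissue RNA (adjusted p = 0.028). Of the cluster around Prss46, only Prss50 passed the filter and it was not called (-0.60, adjusted p = 0.473).

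The lipase and immunoglobulin families held genes that rose, beside 18.4% of all genes tested. All 3 tested acid lipase genes rose, the lysosomal lipase gene Lipa by 3.09 (SE 0.64, edgeR adjusted p = 0.000578) from a mean of 95 to 807 CPM, the gastric lipase gene Lipf by 3.74 (adjusted p = 0.000198) from 0.552 to 7.41 CPM, and Lipo3 by 0.62 (adjusted p = 0.0186). Lipa is also in the lipid-associated macrophage list and Vsig4, below, in the resident list, both counted above. Lipk and Lipm, which flank Lipn, had HFD means of 0 and 0.0538 CPM. Of 5 tested genes of the VSIG family with VISTA, Vsig4, a receptor of tissue macrophages, rose by 2.44 (adjusted p = 0.00493) and Vsir by 0.80 (adjusted p = 0.0163), from a mean of 251 to 436 CPM.

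**Figure D5:**
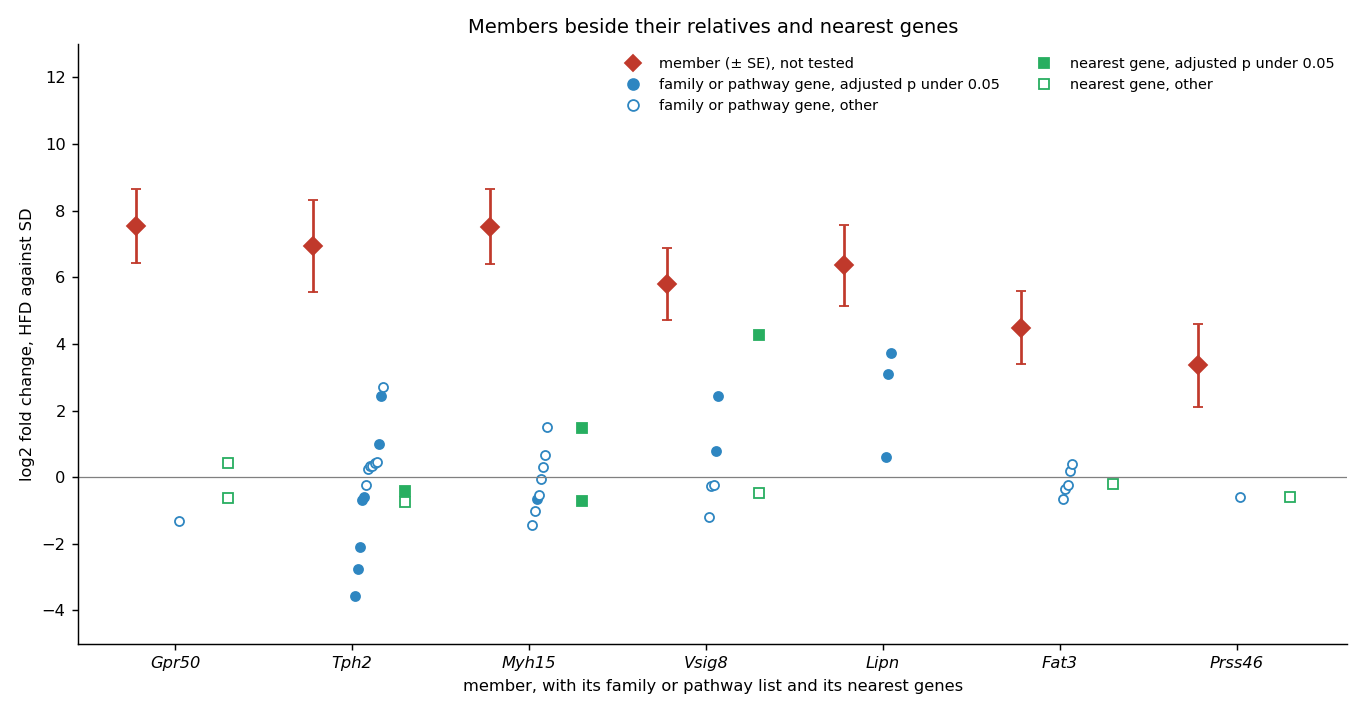
Log2 ratio of HFD over SD for each of the 7 genes (diamonds, with the standard error and no test), the tested genes of its family or pathway list (circles) and its nearest tested genes (squares), filled where the adjusted p was under 0.05. Slamf8 beside Vsig8, at 4.27, and the acid lipases Lipf and Lipa, at 3.74 and 3.09, stand highest among the relatives and neighbours. The diamonds are high by the choice of the genes.

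Marker lists of the tissues in which the 7 genes are known gave mixed counts, beside 18.4% of all genes tested that rose and 13.3% that fell. Of 6 tested epidermal and hair genes 1 rose, the desmosomal gene Dsg1a by 3.23 (edgeR adjusted p = 0.00569), and 1 fell, Lor (loricrin) at -1.96 (adjusted p = 0.0394). The hair keratin genes Krt33a and Krt35 were at 0 in SD and HFD. Of 9 tested striated muscle genes 1 rose, Pvalb (parvalbumin) by 4.88 (adjusted p = 0.000859), from a mean of 0.155 to 4.64 CPM, and Atp2a1 fell (-2.22, adjusted p = 0.0308). The muscle genes Ckm and Myh4 averaged 0.0155 and 0.0161 CPM in HFD. Of 9 germ cell genes Sycp3 rose by 1.48 (adjusted p = 0.00828) and 3 fell. Of 9 neuronal genes 4 rose, the synapsin gene Syn1 by 2.40 (adjusted p = 0.000606), the chromogranin gene Chga by 2.51 (adjusted p = 0.0252), the tubulin gene Tubb3 by 1.67 (adjusted p = 0.0192) and Uchl1 by 1.62 (adjusted p = 0.0481), and 1 fell. These 4 also rose with the macrophage score in the 23 libraries. Without the libraries with other tissue RNA no germ cell or neuronal gene fell. The medians of these 4 lists were -0.69, -0.26, -1.05 and 0.46. The epidermal and striated muscle lists summed to 69.6 to 170.4 CPM and 33.4 to 195 CPM over the HFD libraries, against 60.4 to 145 and 38.6 to 287 CPM over SD. The neuronal list summed to 18.7 to 42.9 CPM over HFD against 9.73 to 30.1 CPM over SD.

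Genes next to the 7 on the chromosome moved in both directions, where 18.4% of all genes tested rose in HFD and 13.3% fell. So few genes are given as a description only. Of 14 nearest protein-coding neighbours, Slamf8, 18041 bases from Vsig8 on the opposite strand and known from macrophages, rose most, by 4.27 (SE 0.79, edgeR adjusted p = 0.000285), from a mean of 1.46 to 28.1 CPM. Cip2a, beside Myh15, rose by 1.49 (adjusted p = 0.00816). Ift57, on the other side of Myh15, fell by 0.70 on the log2 scale (adjusted p = 0.0106), and Tbc1d15, beside Tph2, fell by 0.42 (adjusted p = 0.037). Of the other 10, Hmgb3, Vma21, Trhde, Cfap45, Chordc1 and Prss50 did not pass the test, and Lipk, Lipm, Mtnr1b and Prss45 were too low to be tested.

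With SZ-A, the levels of the 7 genes lay between those of HFD and SD in the group means. Gpr50 had a median of 16.7 CPM (1.73 to 73.4) at 200 mg/kg/day, 10.8 (0.778 to 71.5) at 400 and 13.5 (3.51 to 17.2) at 600. Tph2 had a median of 9.43 CPM (1.1 to 84.8) at 200, 2.55 (0.12 to 123) at 400 and 5.52 (0.0472 to 35.5) at 600. Vsig8 had a median of 31.9 CPM (1.36 to 98.7) at 200, 17.3 (0.626 to 128) at 400 and 22.3 (2.64 to 115) at 600. For these 3 genes the range at each dose overlapped that of HFD, and the median over all libraries was lowest at 400 mg/kg/day. That order rests on the SZ-A 400 libraries 3 and 6. Without the libraries with other tissue RNA the median was highest at 400, at 25.8 CPM for Gpr50 (16.7 at 200 and 14.3 at 600), 34.4 for Tph2 (9.43 and 6.22) and 50.2 for Vsig8 (31.9 and 23.4).

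Myh15 had a median of 5.48 CPM (0.185 to 15.4) at 200 mg/kg/day, 5.09 (0.161 to 21) at 400 and 2.23 (0.283 to 6.57) at 600. Fat3 had a median of 7.84 CPM (0.185 to 27.9) at 200, 4.98 (0.0537 to 34.3) at 400 and 3.32 (1.03 to 7.85) at 600. The medians of both fell from dose to dose, within overlapping ranges. Lipn had a median of 0.776 CPM (0 to 2.25) at 200, 0.11 (0.0501 to 2.07) at 400 and 0.332 (0 to 1.22) at 600. Prss46 had a median of 1.5 CPM (0 to 7.69) at 200, 0.36 (0 to 6.23) at 400 and 0.67 (0 to 3.27) at 600. The Lipn and Prss46 medians were lowest at 400, and for Prss46 this rests on SZ-A 400 libraries 3 and 6. Without the libraries with other tissue RNA the Prss46 median was 1.62 CPM at 400, 1.5 at 200 and 0.687 at 600. The Lipn median was then 0.42 CPM at 400, just below 0.426 at 600, and 0.776 at 200. The mean over libraries was lowest at 600 among the 4 high-fat groups for all 7 genes, with and without those libraries.

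Against HFD, the log2 ratios at 600 mg/kg/day were -2.79 for Myh15 (SE 0.76), -2.37 for Fat3 (SE 0.88), -2.30 for Tph2 (SE 0.96) and -1.65 for Gpr50 (SE 0.72). They were -1.62 for Lipn (SE 0.80), -1.55 for Prss46 (SE 1.03) and -1.21 for Vsig8 (SE 0.78). At 200 they ran from -0.36 for Prss46 to -1.61 for Myh15, and at 400 from -0.52 for Tph2 to -1.65 for Myh15. The 3 doses share the HFD libraries, which chose the genes, so no test is given. The 7 genes were below HFD at each dose, and still above SD, by 1.81 for Prss46 to 5.90 for Gpr50 at 600.

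Between doses the tests are independent of the choice of genes, and none of the 7 was called. For 600 against 200 mg/kg/day the log2 ratios were -1.51 for Tph2 (SE 0.95, edgeR adjusted p = 0.552), -1.19 for Prss46 (SE 1.04, adjusted p = 0.701), -1.18 for Myh15 (SE 0.74, adjusted p = 0.55) and -1.18 for Fat3 (SE 0.86, adjusted p = 0.627). Gpr50 was at -1.15 (SE 0.72, adjusted p = 0.554), Lipn at -1.03 (SE 0.80, adjusted p = 0.663) and Vsig8 at -0.21 (SE 0.79, adjusted p = 0.953). All 7 ratios were below 0, and none passed this test. In this comparison edgeR called 0% of 20218 genes, with 2454 at an unadjusted p under 0.05, DESeq2 called 73 and limma on log2(FPKM + 1) called 0.

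For 400 against 200 mg/kg/day, none of the 7 was called, where 1.04% of genes were, and the ratios ran from -0.82 for Lipn to 0.27 for Tph2 with adjusted p from 0.962 to 0.998 in edgeR. For 600 against 400, none was called, where 0.519% of genes were, and the ratios ran from -1.78 for Tph2 to -0.20 for Vsig8 with adjusted p from 0.728 to 0.985. Both shares depend on the libraries with other tissue RNA. Without them edgeR called 0 genes in each comparison (538 and 502 at an unadjusted p under 0.05), while with all libraries DESeq2 called 62 and 48 and limma 0. A linear trend over the 3 doses gave slopes per 200 mg/kg/day from -0.75 for Tph2 to -0.10 for Vsig8, none called (adjusted p 0.622 to 0.966). For that trend edgeR called 0% of 18636 genes, with 2011 at an unadjusted p under 0.05, DESeq2 called 43 and limma 0. The SE of 0.72 to 1.04 for 600 against 200 shows how uncertain the ratios were. A p that misses the threshold does not show that the doses acted alike.

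The mean macrophage score was below that of HFD at each dose. With all libraries it was lowest at 400 mg/kg/day, while the mean levels of the 7 genes were lowest at 600. The mean score was 7.58 ± 1.3 (standard deviation, n = 10) in HFD, 7.02 ± 1.18 (n = 9) at 200 mg/kg/day, 6.20 ± 1.72 (n = 8) at 400 and 6.33 ± 0.99 (n = 9) at 600. The difference between doses did not pass an exact two-sided permutation test, at p = 0.192 for 600 against 200, p = 0.266 for 400 against 200 and p = 0.852 for 600 against 400. Without the libraries with other tissue RNA the mean score was 6.90 at 400 (n = 6) and 6.58 at 600 (n = 8), so 600 minus 400 turned from 0.13 to -0.32 (exact permutation p = 0.559) and 400 minus 200 was -0.12 (exact permutation p = 0.819). With the score as a term, the ratios of 600 over 200 were 0.02 for Gpr50, -0.15 for Tph2, -0.56 for Myh15, 0.55 for Vsig8, 0.12 for Lipn, -0.96 for Fat3 and 0.35 for Prss46. The ratios of Gpr50, Tph2 and Lipn lay within 0.15 of 0 in that fit, and Myh15 and Fat3 remained further below it. None was called. The fit kept the libraries with other tissue RNA. With them, the slope on the score among SZ-A libraries was only 0.12 for Fat3 and 0.59 for Myh15. Both slopes were steeper without them, so this fit cannot show whether the Fat3 and Myh15 ratios go with the score. That was not tested without those libraries.

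Within each dose group a few libraries carried the high values. In SZ-A 200, libraries 2, 3 and 4 were each among the 3 highest for 6 of the 7 genes, at macrophage scores of 8.42, 7.84 and 7.98. In SZ-A 400, libraries 2 and 5 were among the 3 highest for all 7, at scores of 8.42 and 8.03, and library 4 for 5 of them, at 7.84. In SZ-A 600, library 8 was among the 3 highest for 6 genes, at 7.10, and library 6, which held other tissue RNA, was the lowest for 6 genes, at 4.35. SZ-A 200 library 1 was the lowest for 5 genes, at a score of 5.70. The libraries with high values for several of the 7 genes were among the upper 4 macrophage scores of their group in each case named.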

How the data were processed

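Poly(A)-selected, strand-specific libraries were read as 150 bp pairs, per the labels' protocols. Per the file headers, the authors deposited 1 table of raw read counts and 1 of FPKM, gene by library, and all library columns were used. The submitters' processing notes name mm10, while the coordinates in the files differ from GRCm38, so they are given as deposited and apart from the RefSeq sequences. No source used here names the aligner or the counter. FPKM is each library's count over gene length and a library factor of 0.776 to 1.15, and was used to compare levels between genes and in limma 3.58.1 on log2(FPKM + 1) and log2(FPKM + 0.1) as an alternative.

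CPM and log2 CPM (prior count 2) use edgeR's TMM library sizes. Tests are edgeR 4.0.16 quasi-likelihood tests in R 4.3.3 on the counts, after its filter on low counts, with Benjamini-Hochberg adjustment over 20218 genes in 43 libraries, 18636 in the 26 SZ-A libraries or 18900 in 23 of these, and a threshold of 0.05. Dose comparisons were fitted on all groups. Slopes on a score were fitted over SZ-A libraries. Libraries with other tissue RNA hold 100 or more genes at 10 CPM or above and over 20 times their median. Library sets come from the widest gap in the share of small non-coding RNA. Both were set from the data, not the labels. DESeq2 1.42.0 was an alternative, and the scripts were tested on simulated counts. The alternatives were other scaling, filters, tools, scores and terms, library sets, a replicate block and leaving out each library.

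The 7 genes, the gene lists and the tests were chosen with earlier results of these data known. Beyond the 7 genes, the text names the 5 genes most like each, at most 4 called genes per pathway or family list by smallest p, the nearest protein-coding gene on each side and 8 macrophage genes. A gene that this rule names is not reported here. Ddc, Tph1, Mtnr1a, Gpr62, Fat4, Krt33a, Krt35, Ckm, Myh4, the neuronal genes, the closest genes over 23 libraries and the antisense RNA were named after their values were seen.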

Additional observations from a re-analysis of the deposited data

Results flagged for a closer look

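Each gene was looked at in each group of 7 to 10 libraries. In 8 of these 35 cases the highest library stood apart from the rest of its group by Dixon's criterion. Its chance rate of about 1 in 20 assumes independent normal values. Many CPM values here lie near 0 and the genes go together by library, so the 8 are not weighed against that rate. In 4 of the 8 it was SD library 4, at 0.943 CPM for Gpr50 (next 0.115), 0.0877 for Lipn (next 0), 5.13 for Fat3 (next 0.197) and 1.93 for Prss46 (next 0.0582). That library held 798 CPM of ciliated cell genes and also had the highest macrophage score of the 7 SD libraries, 5.89. The part of other tissue or of macrophages in its values was not tested. SZ-A 400 library 6, with 23411 CPM of duct genes, stood apart for Fat3 at 34.3 CPM (next 12.5), and the part of that tissue was not tested. SZ-A 400 library 5 stood apart for Myh15 at 21 CPM (next 9.71), SZ-A 400 library 2 for Prss46 at 6.23 CPM (next 2.88) and SZ-A 200 library 7 for Fat3 at 27.9 CPM (next 12.9).

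In 2 cases the slope on the macrophage score differed between the library sets by an interaction test in edgeR. Set 2 minus set 1 was -1.46 for Myh15 (adjusted p = 0.038) and -1.71 for Fat3 (adjusted p = 0.0271), and with SZ-A libraries that held RNA of other tissue left out it was -1.09 (adjusted p = 0.442) and -0.30 (adjusted p = 0.744).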

How the results depend on the processing

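The 6 of 7 genes that rose with the macrophage score became 3 within library set 2 (11 libraries), where Gpr50 was at 0.68, Myh15 at 0.54 and Lipn at 1.17, and 3 with the resident list's score; the cause was not tested. Leaving out single libraries gave 5 (without SZ-A 400 replicate 5) to 7 (without SZ-A 400 replicate 6). The 3 genes that rose with the resident score became 0 without libraries with other tissue RNA. The 3 genes that differed between library sets became 1 with the macrophage score as a term, and Vsig8 turned to 0.06 with the score and without other tissue RNA; both alternatives were added after seeing the data. None of the 7 genes was called between doses or over the trend under any of the 42 alternatives run for each comparison and 41 for the trend, and leaving out single libraries gave 0 to 0. Replicate numbers are not shown to pair the libraries. Over 79 same-numbered pairs in different groups, the correlation of deviations ran from -0.36 to 0.54 (median 0.20), and 48 were over 0.1. Over 658 pairs with other numbers, 238 were over 0.1 (median -0.04). The numbers follow the library sets, and within a set the median was 0.22 for same-numbered pairs and 0.25 for the others. With the replicate block, HFD against SD gave 10172 genes in place of 6414, the dose tests called 0 of the 7 genes, and the macrophage score 7, with Fat3 at 1.52. Counts near 0 limit Lipn and Prss46 in SD, where 3 reads are at most 0.0872 CPM.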
